A study of Mus musculus with 45 samples.

Results

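The 8 genes described here encode enzymes, transporters and regulators of hepatic glucose production. They are *Pck1*, *G6pc*, *Fbp1*, *Pcx*, *Ppargc1a*, *Slc2a2*, *Slc37a4* and *Foxo1*, taken by name out of 39179 genes listed, and all 8 were among the 17464 genes with more than 4 reads in any sample that were tested. Liver RNA came from 45 female C57BL/6 mice in 9 groups of 5. One group was gavaged with sesame oil (vehicle) and 8 with the dioxin TCDD, a ligand of the aryl hydrocarbon receptor (AhR), at 0.01 to 30 µg/kg (0.01, 0.03 and 0.1, then 0.3 and 1, then 3, 10 and 30), once every 4 days for 28 days. Dosing began on postnatal day 28 and diet was freely available, and the hour of sampling is not given in the sources used here. The labels call the mice ovariectomized and carry the word daily beside the interval of 4 days, whereas the study's methods mention neither, so ovariectomy, if it was done, was shared by the vehicle group. Each library was the RNA of 1 mouse, with 11767284 to 56509899 reads on genes and a median of 17225047, and mice are numbered by the order of their titles in a group, which the labels tie to no litter, cage or day. Albumin and the other hepatocyte markers were abundant in all groups, with a summed level of 114161 to 143408 CPM (counts scaled to a common library size) in vehicle mice, and 6 of 6 AhR response genes rose at 30 µg/kg, led by *Cyp1a1* (log2 fold change 9.98 ± 0.83 SE).

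Gluconeogenesis rebuilds glucose from lactate, alanine, glycerol and other precursors when dietary glucose is short, and the liver is its main site. Pyruvate carboxylase (*Pcx*) and cytosolic phosphoenolpyruvate carboxykinase (*Pck1*) bypass pyruvate kinase, fructose-1,6-bisphosphatase (*Fbp1*) bypasses phosphofructokinase, and glucose-6-phosphatase (*G6pc*), fed by the glucose-6-phosphate transporter of the endoplasmic reticulum (*Slc37a4*), releases free glucose that crosses the hepatocyte membrane through GLUT2 (*Slc2a2*). FOXO1, a transcription factor restrained by insulin, and PGC-1α, a coactivator encoded by *Ppargc1a* and induced through cyclic AMP during fasting, are known to raise transcription of *Pck1* and *G6pc*.

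On GRCm38, *Pck1* (ENSMUSG00000027513) lies at chr2:173153048-173159273, *G6pc* (ENSMUSG00000078650) at chr11:101367561-101377903, *Pcx* (ENSMUSG00000024892) at chr19:4510472-4621752, *Slc2a2* (ENSMUSG00000027690) at chr3:28697903-28731359, *Slc37a4* (ENSMUSG00000032114) at chr9:44396852-44402968 and *Foxo1* (ENSMUSG00000044167) at chr3:52268336-52353221, all on the plus strand. *Fbp1* (ENSMUSG00000069805) lies at chr13:62864753-62888282 and *Ppargc1a* (ENSMUSG00000029167) at chr5:51454250-51567726 on the minus strand. Of the 8, *Foxo1* alone shares exon bases with another annotated gene, the antisense *Gm20402*, which held 6 reads over the 45 mice. The genes with the fewest reads were *Ppargc1a*, with at least 200 reads in every mouse, *Foxo1*, with at least 441, and *G6pc*, with at least 488.

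The DNA just before the start site is shown for 4 members: *Slc2a2* and *Fbp1*, which carried the clearest changes with dose, and *Pck1* and *Ppargc1a*, which matched a motif. The RefSeq stretches below (GRCm38.p6) run 5′ to 3′ on the strand of the gene, from 150 bases before the start site up to it, less bases that lie in an annotated exon, and capitals mark a match to TGACG, the core of the cAMP response element, here read on the opposite strand. They cover chr3:28697753-28697902 for *Slc2a2*, chr13:62888283-62888432 for *Fbp1*, chr2:173152923-173153047 for *Pck1* and chr5:51567727-51567875 for *Ppargc1a*.
Slc2a2: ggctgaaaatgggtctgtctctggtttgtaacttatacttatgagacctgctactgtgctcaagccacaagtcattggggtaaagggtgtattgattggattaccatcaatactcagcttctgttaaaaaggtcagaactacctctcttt
Fbp1: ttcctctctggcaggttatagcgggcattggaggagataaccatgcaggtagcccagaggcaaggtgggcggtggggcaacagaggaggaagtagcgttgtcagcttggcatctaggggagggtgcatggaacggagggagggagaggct
Pck1: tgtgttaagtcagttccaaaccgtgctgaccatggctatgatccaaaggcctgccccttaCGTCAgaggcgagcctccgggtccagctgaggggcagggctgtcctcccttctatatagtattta
Ppargc1a: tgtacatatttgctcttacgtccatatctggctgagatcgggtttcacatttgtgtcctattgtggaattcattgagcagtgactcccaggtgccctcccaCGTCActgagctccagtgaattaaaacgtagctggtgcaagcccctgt

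All 8 members matched the RefSeq promoter set, with 11 windows of 250 bases before a start site, and 5 motifs were searched on both strands. TGACG was found in 17.7% of 32817 windows of the same length and among the members in *Pck1* (-90 to -86 from the start site), *Ppargc1a* (-49 to -45) and 2 of the windows of *Slc37a4*. The whole element TGACGTCA, which contains that core, was in 1.55% of windows and in no window of the members, and the same held for the FOXO core TGTTTAC, in 3.16% of windows. The AhR core GCGTG, found in 28.1% of windows, was present only in *Foxo1* (-247 to -243), and TATAAA, found in 12.4%, in *G6pc* (-29 to -24) and 1 window of *Slc37a4*. *Slc2a2*, *Fbp1* and *Pcx* held no match to the 5 motifs in these windows. A match describes letters and not binding.

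In vehicle livers the members covered a wide range of levels when compared per exon length. *Pck1* and *Fbp1* were the most abundant, at 878 ± 240 and 673 ± 91.5 RPKM (CPM per kilobase of exon, SD, n = 5), which ranked 57 and 80 among 17270 genes. *Pcx*, *Slc2a2*, *Slc37a4* and *G6pc* lay close together at 92.0 ± 11.9, 86.9 ± 13.7, 82.2 ± 7.75 and 77.0 ± 15.4 RPKM. The regulators were far lower, at 7.08 ± 1.85 RPKM for *Foxo1* and 5.07 ± 1.25 RPKM for *Ppargc1a*. At 30 µg/kg the order at the top was turned around, with *Fbp1* at 1141 ± 144 RPKM and *Pck1* at 600 ± 175 RPKM.

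The first comparison asked at which dose each member departed from vehicle. At the highest dose, 4 of the 8 were called (adjusted p under 0.05, edgeR quasi-likelihood test): *Slc2a2*, *Ppargc1a* and *Pcx* fell and *Fbp1* rose, whereas *Pck1*, *G6pc*, *Slc37a4* and *Foxo1* did not pass the test. Across all genes tested, 29.6% were called at that dose, 14.1% lower and 15.5% higher, and the median log2 fold change was -0.43 over the 8 members and 0.02 over all genes. At 10 µg/kg 2 members were called, *Slc2a2* lower and *Fbp1* higher, with 15.9% of all genes called (7.47% lower and 8.47% higher). At 3 µg/kg 1 member was called, *Slc2a2*, with 7.54% of all genes called. From 0.01 to 1 µg/kg none of the 8 was called, and the percentage of all genes called was 0.0, 0.0573, 0.0229, 0.464 and 1.76 in order of dose. At these 5 doses 2, 3, 1, 3 and 3 members had an unadjusted p under 0.05 in edgeR, and DESeq2 and limma also called 0. The share of all genes with an unadjusted p under 0.05 is not given here, so these counts cannot be set against it. The 8 comparisons share 1 vehicle group, so they are not independent of each other. In a test over all 9 groups, which called 28.8% of genes, 3 members were called: *Fbp1* (adjusted p = 1.66e-07), *Slc2a2* (6.85e-05) and *Pcx* (0.0115).

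**Figure D1:**
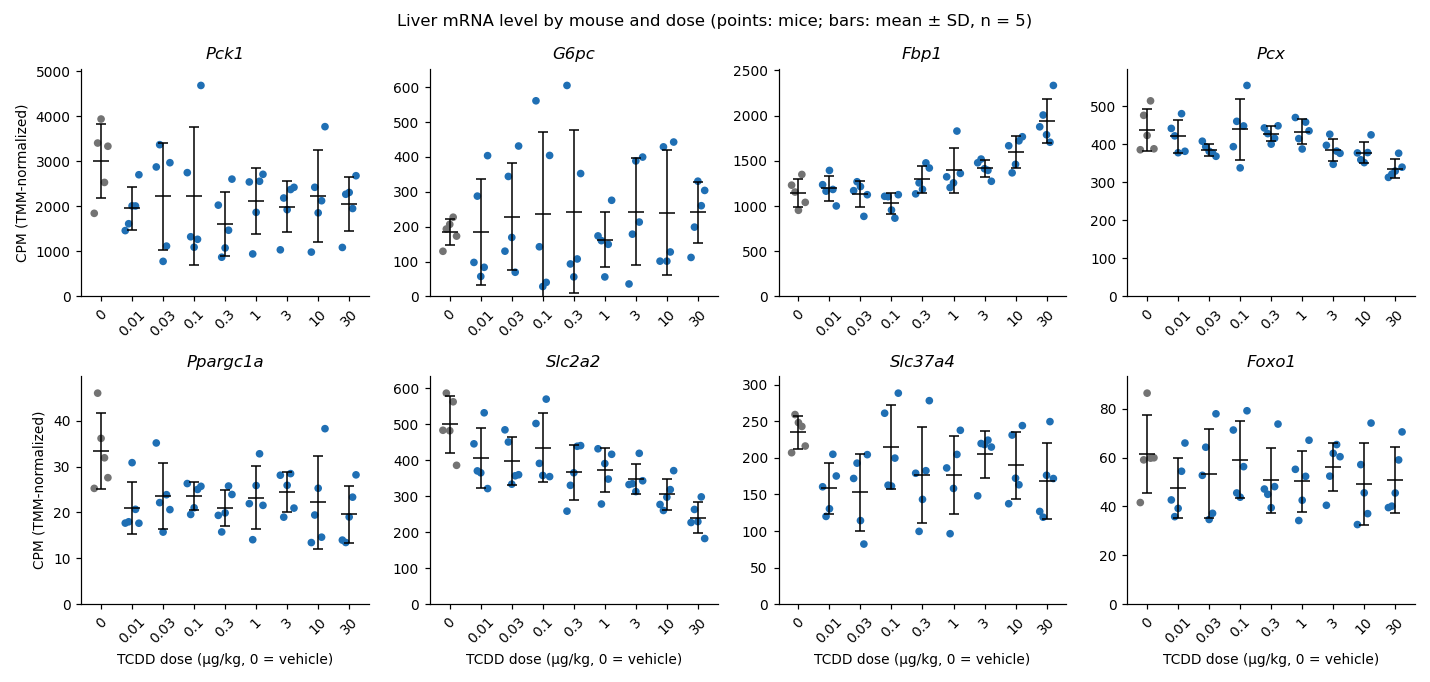
TMM-normalized CPM of the 8 genes (vertical axes, each from 0) against TCDD dose (horizontal axis, µg/kg, 0 for vehicle). Points are mice and bars the mean ± SD of 5 mice. *Fbp1* climbs from a mean of 1145 to 1942 CPM and *Slc2a2* declines from 500.1 to 240.0 CPM, whereas *G6pc* mice of 1 group lie up to 19.7-fold apart.

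*Pcx*, the mitochondrial enzyme that turns pyruvate into oxaloacetate, fell by 23.2% at 30 µg/kg. The vehicle mice had 386, 476, 423, 514 and 388 CPM and the 30 µg/kg mice 313, 322, 329.6, 376 and 339.8 CPM, so that every mouse at the highest dose lay below every vehicle mouse, as was the case for 9.57% of all genes. The log2 fold change was -0.38 ± 0.09 (SE, adjusted p = 0.00183). From 0.01 to 10 µg/kg the group means stayed between 378 and 439 CPM and the log2 fold changes ran from -0.21 to 0.01, none called. The call at 30 µg/kg and that over 9 groups were lost without TMM scaling (log2 fold change -0.17, adjusted p = 0.132, and adjusted p = 0.256), a setting that moved the median of all genes from 0.02 to 0.23 at that dose.

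*Pck1*, which makes phosphoenolpyruvate from oxaloacetate in the cytosol, is the most abundant member per length in vehicle liver. It varied widely between mice, and it was not called at any dose. Vehicle livers held 1845, 3405, 3937, 2531 and 3334 CPM and the 30 µg/kg mice 1088, 2268, 2309, 1952 and 2680 CPM, with 1 of the dosed mice below the vehicle range. The vehicle mean of 3010 ± 823 CPM (SD, n = 5) was the highest of the 9 groups, and the lowest was 1610 ± 709 CPM at 0.3 µg/kg. Its log2 fold change ran from -0.90 ± 0.38 at 0.3 µg/kg (adjusted p = 0.388) to -0.43 ± 0.38 at 10 µg/kg, and was -0.55 at 30 µg/kg with a 95% interval of -1.31 to 0.22 (adjusted p = 0.292).

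*Fbp1*, the fructose-1,6-bisphosphatase of liver, was the only member called higher than vehicle. The vehicle mice had 1231, 1154, 953, 1349 and 1041 CPM, the 10 µg/kg mice 1666, 1367, 1461, 1721 and 1766 CPM and the 30 µg/kg mice 1876, 2006, 1788, 1705 and 2333 CPM. No mouse of the 2 highest doses overlapped the vehicle range, where 8.1% and 10.3% of all genes lay wholly above vehicle. The log2 fold change was 0.48 ± 0.12 at 10 µg/kg (adjusted p = 0.00279) and 0.76 ± 0.12 at 30 µg/kg (adjusted p = 1.79e-06), the latter an increase of 69.5%. Below these doses its means were 1032 to 1195 CPM from 0.01 to 0.1 µg/kg and 1294, 1394 and 1415 CPM at 0.3, 1 and 3 µg/kg. At 3 µg/kg 4 of 5 mice lay above every vehicle mouse, but the log2 fold change of 0.31 ± 0.12 was not called (adjusted p = 0.0996), and was called without TMM scaling (adjusted p = 0.018).

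*G6pc*, the catalytic subunit of glucose-6-phosphatase, showed no call at any dose and by far the widest scatter of the members. Levels in vehicle mice were 129.5, 193, 207, 227 and 173 CPM and the 30 µg/kg mice 112, 199, 330.4, 260.1 and 304 CPM. At 0.1 µg/kg the 5 mice had 561, 142, 28.5, 40.4 and 404 CPM, on both sides of the vehicle range. The group mean was 229 to 243 CPM at 6 of the doses, against 186 CPM in vehicle and at 0.01 µg/kg and 163 CPM at 1 µg/kg, and the log2 fold change at 30 µg/kg was 0.37 with a 95% interval of -0.96 to 1.71 (adjusted p = 0.719). This interval holds falls and rises alike.

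*Slc37a4* supplies glucose-6-phosphate to that enzyme. The vehicle mice had 207, 259, 248, 243 and 216 CPM and the 30 µg/kg mice 127, 119, 176, 249.5 and 172 CPM, with 4 of 5 dosed mice below the vehicle range. The log2 fold change of -0.48 ± 0.24 was not called (adjusted p = 0.134), but was called when the 2 groups were fitted alone (adjusted p = 0.0363) or without mouse 4 of 30 µg/kg (-0.68, adjusted p = 0.0336). The lowest means were at the lowest doses, 158 ± 34.3 CPM at 0.01 µg/kg and 153 ± 52.7 CPM at 0.03 µg/kg, where all 5 mice lay below every vehicle mouse, as did 0.756% and 1.34% of all genes, and neither fold change passed (adjusted p = 0.418 and 0.304). Its means thus did not follow the dose.

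*Slc2a2*, the GLUT2 transporter through which glucose leaves the hepatocyte, had the largest called change among the members and was first called at 3 µg/kg, below the first call of any other member. Vehicle levels were 483, 587, 482, 563 and 386 CPM, the 10 µg/kg mice 277, 260.4, 297, 318 and 371 CPM and the 30 µg/kg mice 227, 263, 229, 298 and 182 CPM. All mice of both doses lay below every vehicle mouse, as did 6.13% of all genes at the lower of these doses. The log2 fold change was -0.71 ± 0.16 at 10 µg/kg (adjusted p = 0.00108) and -1.06 ± 0.16 at 30 µg/kg (adjusted p = 1.34e-06), and the level fell by 52.0% at the highest dose. With mice of 332, 335, 313, 419 and 343 CPM, 3 µg/kg gave a log2 fold change of -0.52 ± 0.16 (adjusted p = 0.0328). That call at 3 µg/kg was lost when any 1 of 6 mice was left out (vehicle mice 2 and 4 and mice 1, 2, 3 and 5 of 3 µg/kg, adjusted p from 0.0584 to 0.102) and without TMM scaling (adjusted p = 0.0683). In whole liver RNA, fewer cells of a type and less RNA per cell cannot be told apart.

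*Ppargc1a*, the coactivator, had its highest mean in vehicle mice. The vehicle mice had 25.3, 46, 36.2, 31.9 and 27.6 CPM and the 30 µg/kg mice 14, 13.5, 19, 23.3 and 28.2 CPM, with 4 of 5 dosed mice below the vehicle range and 1 inside it. The log2 fold change was -0.77 ± 0.24 (adjusted p = 0.0117), and without vehicle mouse 2 it was -0.62 and no longer called (adjusted p = 0.0572). At the 7 lower doses the means lay between 20.9 and 24.5 CPM with log2 fold changes of -0.68 to -0.45 and no call, in no order of dose. At 10 µg/kg the change of -0.59 was called by limma (adjusted p = 0.0469) and without mouse 5 of that dose (-0.89, adjusted p = 0.00768), which had 38.3 CPM against 13.4 to 25.3 CPM in the other 4.

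*Foxo1*, which is regulated largely through phosphorylation of its protein, was not called at any dose. The vehicle mice had 41.6, 59.1, 86.4, 59.8 and 59.9 CPM and the 30 µg/kg mice 39.5, 40.1, 45.5, 59.1 and 70.5 CPM, which overlap over most of their range. The log2 fold change at 30 µg/kg was -0.27 with a 95% interval of -0.74 to 0.20 (adjusted p = 0.414), and the 9 group means lay between 47.6 and 61.4 CPM.

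**Figure D2:**
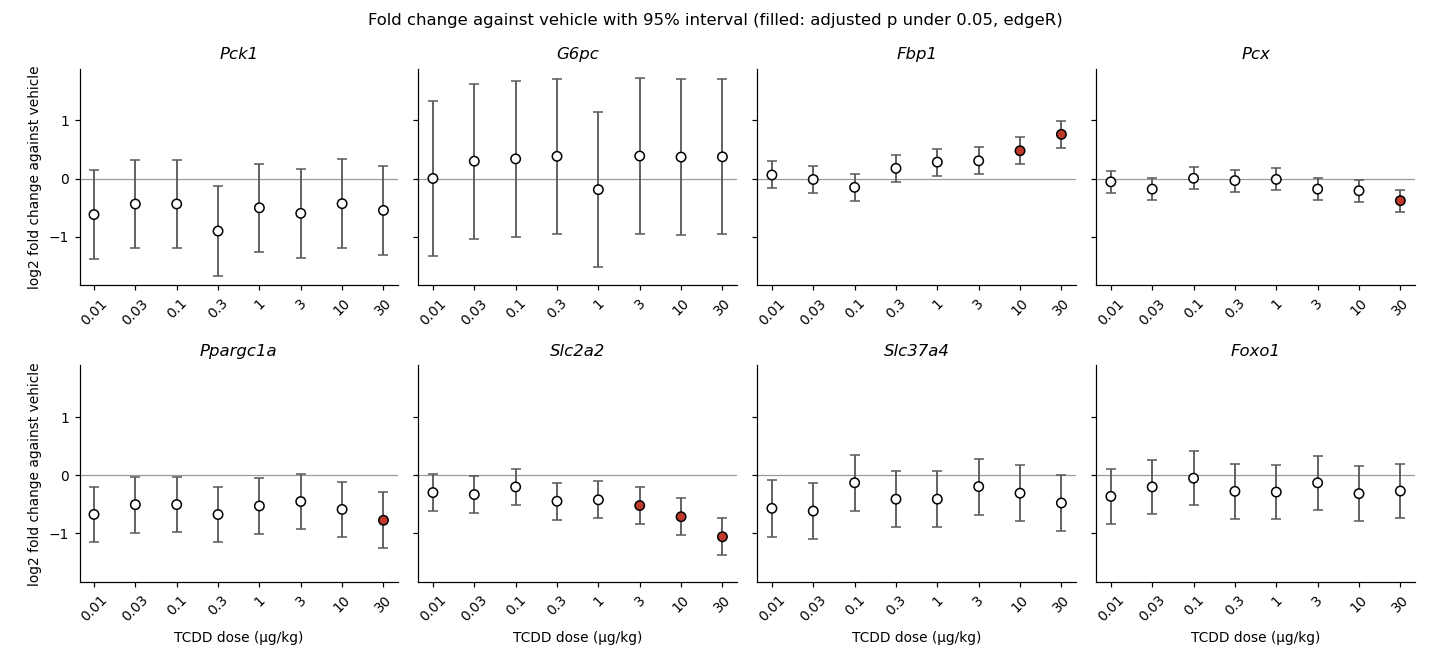
Log2 fold change against vehicle (vertical axis, same scale in all panels) at each TCDD dose (horizontal axis, µg/kg) with its 95% interval, from 5 mice per group. Filled points have an adjusted p under 0.05: *Slc2a2* at 3, 10 and 30 µg/kg, *Fbp1* at 10 and 30 µg/kg, and *Pcx* and *Ppargc1a* at 30 µg/kg.

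Neighbouring doses were then compared directly. None of the 8 members was called in any of the 7 steps from one dose to the next by edgeR, DESeq2 or limma, and the numbers with an unadjusted p under 0.05 in edgeR were 0, 1, 1, 0, 0, 0 and 2. The percentage of all genes called in these steps was 0.0, 0.0115, 0.0458, 0.115, 0.178, 0.784 and 0.613. These percentages are by adjusted p, and the share with an unadjusted p under 0.05 is not given here. Ranked by level, the 9 groups of *Fbp1* ran from 30 through 10, 3, 1 and 0.3 µg/kg down to 0.01 µg/kg, vehicle, 0.03 and 0.1 µg/kg, and those of *Slc2a2* ended in 3, 10 and 30 µg/kg as the lowest. For each of these genes 6 of the 8 neighbours in the ranking differed by less than the larger of their SDs. For *Pck1*, *G6pc*, *Slc37a4* and *Foxo1* all 8 neighbours did, and for *Pcx* and *Ppargc1a* 7 of 8. No 2 neighbours in any ranking were free of overlap between mice.

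The members differed as much in how mice of the same dose varied as in their response to dose. The SD of log2 CPM between mice of 1 group was 0.14 for *Pcx*, 0.18 for *Fbp1* and 0.26 for *Slc2a2*, the 3 genes called over the 9 groups. It was 0.39 for *Foxo1* and for *Ppargc1a*, 0.41 for *Slc37a4*, 0.66 for *Pck1* and 1.19 for *G6pc*. Among 7710 genes with a mean of at least 10 CPM, 99.7% had a smaller spread than *G6pc*, 98.1% than *Pck1* and 91.2% or more than *Slc37a4*, *Ppargc1a* and *Foxo1*, against 18.3% for *Pcx*. *G6pc* was the extreme case. Its highest mouse within a group had 1.75 times the level of the lowest in vehicle, but 2.96 times at 30 µg/kg and 4.38 to 19.7 times at the other 7 doses. This gap in spread between vehicle and dosed mice was not tested.

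**Figure D3:**
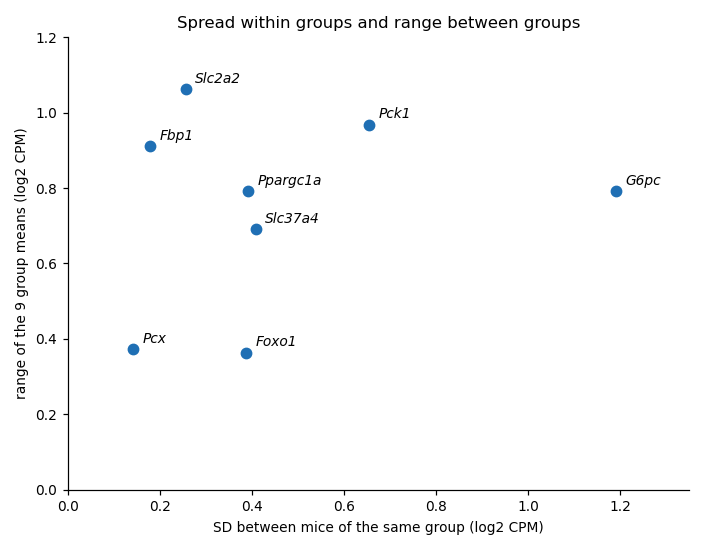
SD between mice of the same dose group (horizontal axis, log2 CPM) against the range of the 9 group means (vertical axis, log2 CPM), 1 point per gene. *Slc2a2* has a range of 1.06 with an SD of 0.26, whereas *G6pc* has a range of 0.79 with an SD of 1.19.

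Some of the members that scattered widely also varied together. Each mouse's log2 CPM was expressed as its deviation from the mean of its dose group, which removes the dose effect, and the 28 pairs of members were correlated over the 45 mice, with two-sided p-values from permutations of mice within groups (100000, smallest possible p = 1e-05) adjusted over the 28 pairs. The correlation was positive in 27 of 28 pairs, with a median r of 0.32, and 11 pairs had an adjusted permutation p under 0.05, all positive. *Pck1*, *Foxo1*, *Slc37a4* and *G6pc* formed 6 of these pairs. The strongest was *Pck1* with *Foxo1* (r = 0.84, rho = 0.85, adjusted permutation p = 0.000112, r = 0.82 without the 2 mice farthest from the median), followed by *Slc37a4* with *Foxo1* (r = 0.83, rho = 0.86, r = 0.82 without such mice) and *Pck1* with *Slc37a4* (r = 0.80, rho = 0.81, r = 0.81 without such mice). *G6pc* followed *Pck1* (r = 0.68, rho = 0.72, r = 0.69 without such mice), *Foxo1* (r = 0.64, rho = 0.66, r = 0.60) and *Slc37a4* (r = 0.58, rho = 0.63, r = 0.55). Mouse 5 of 0.1 µg/kg, for example, had the highest *Pck1* (4683 CPM) and *Slc37a4* (288.5 CPM) of all 45 mice. That mouse also had the highest *Pcx* (554.6 CPM) and the deepest library (56509899 reads on genes). Mouse 5, the last by title number in its group, was the highest of its group in 7 of the 8 dosed groups for *Pck1* and for *Foxo1* and in 5 for *G6pc* and *Slc37a4*, but not in vehicle. What that place in the listing marks is not given in the sources used here, and the permutations treat the mice of a group as exchangeable. Over the 36 mice left without mouse 5 of each group, 11 pairs were called and the 6 pairs of these 4 genes had an r of 0.47 to 0.81, while *Pcx* with *Slc37a4* was no longer called (adjusted permutation p = 0.0664) and *Slc2a2* with *Foxo1* was (r = 0.49, adjusted permutation p = 0.0165).

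*Ppargc1a* went with *Pck1* (r = 0.51, rho = 0.44), *Foxo1* (r = 0.50, rho = 0.50) and *Slc37a4* (r = 0.49, rho = 0.48), at adjusted permutation p of 0.00368, 0.00874 and 0.00874, but its r with *G6pc* was 0.06 (adjusted permutation p = 0.71). Of the other members, *Slc2a2* and *Pcx* were each called with *Slc37a4* (r = 0.43 and 0.38, rho = 0.42 and 0.37, adjusted permutation p = 0.0324 and 0.0146), and *Fbp1* with no member, its r ranging from 0.07 with *Foxo1* to 0.31 with *Pcx*. The study sequenced random samples in pools that the labels do not give, so no value within a pool can be had and pool and deviation cannot be told apart.

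**Figure D4:**
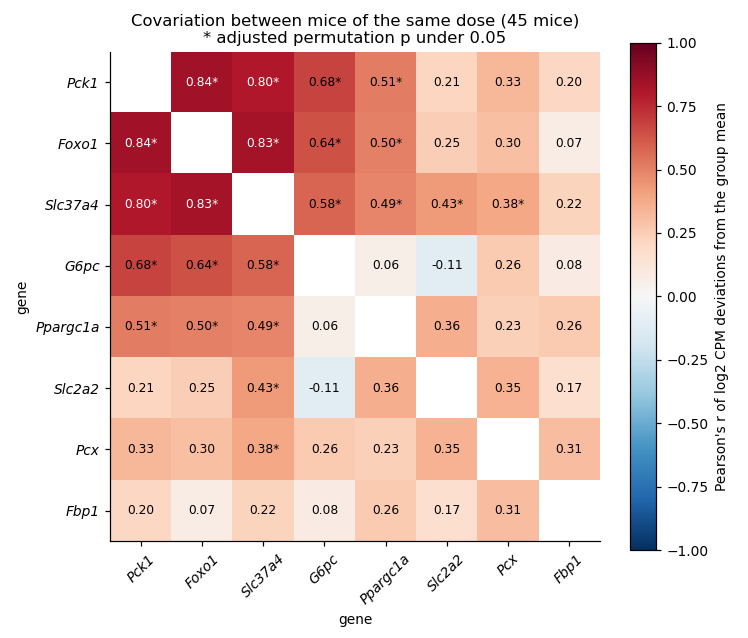
Pearson's r between members (both axes) of log2 CPM deviations from the dose group mean over 45 mice, on a colour scale from -1 to 1, with an asterisk at an adjusted permutation p under 0.05. *Pck1*, *Foxo1*, *Slc37a4* and *G6pc* form a block with r from 0.58 to 0.84, and *Fbp1* has no asterisk.

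The genes whose log2 CPM ran closest to each member over all 45 mice, among 12404 genes with a mean of at least 1 CPM, are given as a description with no test. They share libraries and dose groups with the member. *Slc2a2* ran closest to *Azin1* (r = 0.92), *Gbe1*, the glycogen branching enzyme (r = 0.87), and *Osbpl1a* (r = 0.86), all lower at 30 µg/kg. *Fbp1* ran closest to *Nfs1*, a cysteine desulfurase for iron-sulfur clusters (r = 0.88), *Rcan3* (r = 0.86) and *Nomo1* (r = 0.86), all higher, with r within dose groups of 0.61, 0.41 and 0.41. *G6pc* ran closest to *Plin5*, a lipid droplet protein (r = 0.89), and to *Dusp1* and *Tsc22d3*, both known as glucocorticoid-induced genes (r = 0.85 and 0.84), and these values were 0.92, 0.87 and 0.87 within dose groups. *Pck1* was nearest to *Nr1i2*, the pregnane X receptor (r = 0.87), *Foxo1* to *St3gal5* (r = 0.88), *Slc37a4* to *Rhobtb1* (r = 0.87), *Pcx* to *Gpld1* (r = 0.82) and *Ppargc1a* to *Glt1d1* (r = 0.73).

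The other enzymes and carriers that feed gluconeogenesis were measured as a list of 33 genes, of which 32 were tested. At 30 µg/kg 12 fell and 3 rose while 17 did not pass (46.9% called, against 29.6% of all genes), with a median log2 fold change of -0.20 (0.02 over all genes). Among those that fell were *Gpd2*, the mitochondrial glycerol-3-phosphate dehydrogenase (41.6 ± 6.96 to 14.4 ± 1.01 CPM, log2 fold change -1.53, adjusted p = 1.94e-09), and *Gpt2*, a mitochondrial alanine aminotransferase (-0.96, adjusted p = 0.00302). The mitochondrial pyruvate carrier subunits *Mpc1* and *Mpc2* also fell (-0.54 and -0.71), as did *Sds*, *Got1* and *Got2*, which act on amino acids. *Ldha* (0.76), the lactate dehydrogenase subunit, *Slc25a12* (0.42) and *Pgk1* (0.42) rose. *Gpd2* was first called at 1 µg/kg, below the first dose at which a member was called. Without mouse 1 of 30 µg/kg, 9 of the list were called, and the share of all genes called in that run is not given here.

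Transcriptional regulators of the pathway fell in 9 and rose in 1 of 28 cases (35.7%, near the 29.6% of all genes), with a median of -0.10. *Ppargc1b*, the close relative of *Ppargc1a*, fell by 1.09 on the log2 scale (adjusted p = 0.00829), *Cebpa* by 0.90 (1.9e-05), *Prkaa2*, a catalytic subunit of AMP-activated kinase, by 0.76 (0.00041) and the glucocorticoid receptor *Nr3c1* by 0.54 (1.81e-05). The orphan receptor *Esrrg* rose (1.34, adjusted p = 1.95e-05). *Creb1*, *Crtc2* and *Hnf4a*, which act at these promoters, had log2 fold changes of -0.11, -0.12 and 0.12, none of them called. Of 21 genes of insulin and glucagon signalling, 5 fell and 2 rose (33.3%, near the 29.6% of all genes), with a median of -0.20. The glucagon receptor *Gcgr* fell (-0.44, adjusted p = 0.00127), as did the insulin receptor *Insr* (-0.41, adjusted p = 0.00775), the kinase *Akt2* (-0.51, adjusted p = 2.8e-06), *Pik3ca* (-0.35) and *Adipor2* (-0.42), and *Pdpk1* (0.62) and the insulin receptor phosphatase *Ptpn1* (0.65) rose.

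Genes of glycolysis and pyruvate use and their regulation, listed as opposing gluconeogenesis, changed in 10 of 16 cases (62.5%, against 29.6% of all genes). Of these 7 were lower and 3 higher, and the median over the list was -0.10. *Pdk1*, a kinase of this list known to restrain the oxidation of pyruvate, fell from 182 to 75.7 CPM (log2 fold change -1.27, adjusted p = 1.26e-06). The list thus holds such restraints beside the steps themselves, so its counts of falls and rises have no single functional direction. *Pklr*, the liver pyruvate kinase, went from 314 ± 83.3 to 45.3 ± 6.50 CPM (log2 fold change -2.80, adjusted p = 2.84e-12) and *Mlxipl*, the carbohydrate response factor ChREBP, from 331 to 147 CPM (-1.17). The isoforms that prevail outside the adult hepatocyte rose from low levels, *Pkm* from 5.06 ± 1.17 to 25.1 ± 1.64 CPM (2.31, adjusted p = 7.3e-11), *Hk2* from 1.37 to 4.26 CPM (1.64) and *Hk1* from 1.92 to 5.21 CPM (1.44). Among 12 other glucose transporters tested 3 fell and 3 rose (50% called, against 29.6% of all genes), with a median of 0.07. *Slc2a9* was the most abundant of these 6, at 80.5 ± 9.85 and 58.4 ± 11.5 CPM (-0.46, adjusted p = 0.0135), and the others were below 8 CPM in vehicle, including *Slc2a4* (1.56 to 0.15 CPM). Without vehicle mouse 5, 2 genes of the list were called, and the share of all genes called in that run is not given here.

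**Figure D5:**
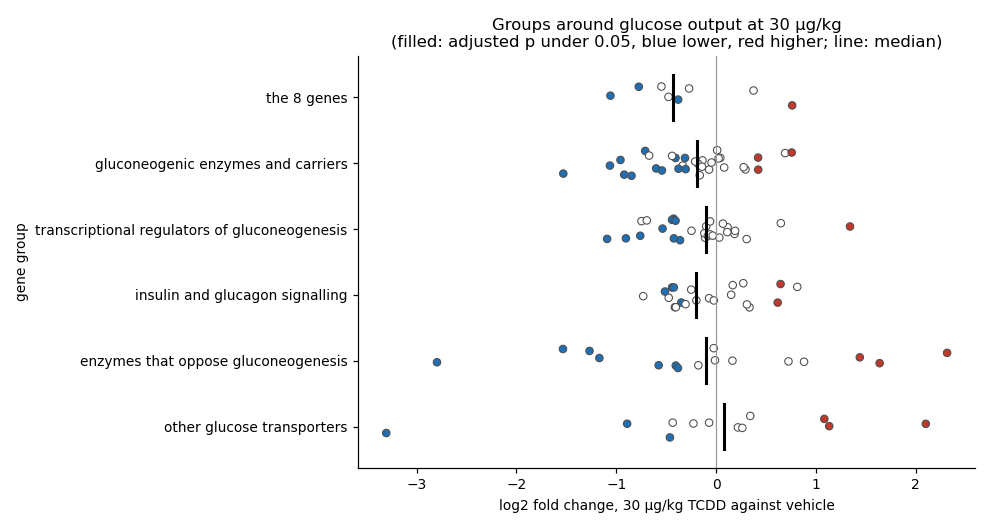
Log2 fold change at 30 µg/kg TCDD against vehicle (horizontal axis) of the 8 genes and 5 groups around them (vertical axis), 1 point per gene, filled blue where lower and red where higher at an adjusted p under 0.05, with the group median as a line. The 8 genes have a median of -0.43, the other enzymes and carriers -0.20, and the list opposing gluconeogenesis reaches from -2.80 to 2.31.

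Markers of liver cell types and zones also changed at 30 µg/kg, where 29.6% of all genes were called, 14.1% lower and 15.5% higher. Some were called at lower doses. At 1 µg/kg, below the first call of any member, 1 hepatocyte marker was lower and 1 macrophage and leukocyte marker was higher. Of 9 periportal markers 5 fell and 2 rose at 30 µg/kg, and their summed level was 10796 to 16776 CPM in vehicle and 5857 to 11154 CPM at 30 µg/kg. *Hal*, *Cps1* and *Sds* (the last also in the list of enzymes and carriers) were lower by 1.05, 0.99 and 0.92 on the log2 scale. *Aldh1b1* and *Hsd17b13* were higher by 0.73 and 0.33. Of 7 pericentral markers 2 fell and 3 rose, and their summed level was 11601 to 15101 CPM in vehicle and 9606 to 13505 CPM at 30 µg/kg. Both sums thus had a lower median at 30 µg/kg than in vehicle: 8562 against 11775 CPM for periportal and 10873 against 14434 CPM for pericentral markers. Of 7 hepatocyte markers 4 fell, led by *Apoa1* (-1.67), while albumin had a log2 fold change of -0.08 and the summed level overlapped at 104816 to 155389 CPM. Markers of macrophages and leukocytes rose in 5 of 10 cases, of stellate cells in 4 of 8 and of endothelium in 4 of 6, and none of 6 cholangiocyte markers was called by edgeR (0 with an unadjusted p under 0.05), DESeq2 or limma. The summed levels in vehicle and at 30 µg/kg were 114 to 193 and 163 to 418 CPM for leukocytes, 268 to 376 and 504 to 705 CPM for stellate cells and 128 to 169 and 151 to 249 CPM for endothelium, and no marker of these lists was at 0 in a whole group. *Pck1* and *G6pc* are also expressed in kidney and intestine, and of the markers of these organs *Umod* had 1 read over the 45 mice, *Slc34a1* 8, *Lct* 12, *Sis* 6, *Slc12a3* 55, *Vil1* 141 and *Lrp2* 282, whereas *Fabp2*, which liver also expresses, had 85545 and a log2 fold change of 0.45 (adjusted p = 0.0277). The part of the shifts in liver cell markers in the members' values was not tested.

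Genes of the circadian clock, known to set a daily rhythm of hepatic glucose production, were also followed. None of 14 was called at 30 µg/kg by edgeR (3 had an unadjusted p under 0.05), DESeq2 or limma, and their median log2 fold change was -0.54. Their summed level was 1104 to 1327 CPM in vehicle, 864 to 1024 CPM at 10 µg/kg and 731 to 868 CPM at 30 µg/kg. Neither of these doses overlapped vehicle in the sum, in which abundant genes weigh most. How often sums of other gene sets part in this way is not given here. *Dbp* had the lowest value among those with over 1 CPM (166 ± 14.6 to 61.5 ± 27.8 CPM, -1.43, adjusted p = 0.0661). At 0.03 µg/kg the sum ranged from 526.2 to 1365 CPM, on both sides of the vehicle range. The part of the clock genes in the levels of *Pck1*, *G6pc*, *Slc37a4* and *Foxo1* was not tested.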

How the data were processed

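Livers of 45 mice were sequenced with the Illumina TruSeq kit as single reads. According to the study's methods and the submitters' processing notes, the authors checked reads with FastQC 0.11.2, trimmed them, aligned them with Bowtie and TopHat 1.4.1 to GRCm38, handled alignments with SAMtools 0.1.19 and counted them on Ensembl genes with HTSeq 0.6.1. The strand setting is not given in the sources used here. The deposited values are raw read counts per gene and mouse, with no normalization. Rows that name no gene were left out of library sizes and tests: reads outside genes came to 9.11 to 17.1% of each library and ambiguous reads to 1.34 to 2.07%. HTSeq leaves out reads that align to several places, so genes with near-identical copies are underestimated.

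Groups come from the dose labels. Counts were scaled by TMM and tested with edgeR 4.0.16 in R 4.3.3 (glmQLFit and glmQLFTest, 1 coefficient per group, all 45 mice in 1 fit) over the 17464 genes with more than 4 reads in any sample, against vehicle, between neighbouring doses and over 9 groups, with Benjamini-Hochberg adjustment in each comparison and a threshold of 0.05. Log2 CPM for spreads and correlations used a prior count of 2. DESeq2 1.42.0, limma 3.58.1 on variance-stabilized counts, other scalings and filters, a 2-fold minimum and each mouse left out were the alternatives. Each method was tested on simulated data with 200 genes changed at 30 µg/kg. Of 2-fold changes edgeR, DESeq2 and limma recovered 77, 82 and 77%, and of 1.5-fold changes 51, 54 and 49%. False calls numbered 9, 15 and 8 in the same order, so a change of that smaller size was often missed. Tables were made in Python 3.11.15 with pandas 2.3.3, numpy 2.4.6 and scipy 1.17.1. Positions and exon lengths are those of GENCODE on GRCm38, and 37607 of 39179 identifiers had a symbol.

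The members and gene lists were chosen with earlier results of these data known. Named were all members, the 3 largest changes per list and direction at 30 µg/kg and the 3 nearest genes per member. Some genes under this rule are not reported here. Further genes named within lists (*Mpc1*, *Mpc2*, *Got1*, *Got2*, *Nr3c1*, *Creb1*, *Crtc2*, *Hnf4a*, *Insr*, *Pik3ca*, *Mlxipl*, *Dbp*, albumin and the kidney and intestine markers) were chosen after their values were seen. In genes with few reads counting error adds to the spread between mice.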

Additional observations from a re-analysis of the deposited data

Results flagged for a closer look

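In each of the 72 sets of 5 mice (8 genes in 9 groups) the most extreme mouse was compared with the others by Dixon's ratio of the gap to the whole range. It passed the 95% limit in 5 sets, where chance gives about 1 in 20. Mouse 4 of 1 µg/kg had 1829 CPM of *Fbp1* against 1204 to 1360 CPM in the other 4. Mouse 3 of 0.01 µg/kg had 30.9 CPM of *Ppargc1a* against 17.7 to 20.7 CPM. Mouse 4 of 3 µg/kg had 419 CPM of *Slc2a2* against 313 to 343 CPM, at the dose where this gene was first called. Mouse 1 of 3 µg/kg had 148 CPM of *Slc37a4* against 215 to 224 CPM. Mouse 5 of 0.3 µg/kg had 73.7 CPM of *Foxo1* against 39.5 to 48.1 CPM.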

How the results depend on the processing

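With a fold change of at least 2 required, 0 members were called at 3 µg/kg (1 without that rule), 0 at 10 µg/kg (2) and 1 at 30 µg/kg (4), and the numbers called at 30 µg/kg went from 15 to 2 for gluconeogenic enzymes and carriers, from 10 to 2 for regulators and from 7 to 0 for insulin and glucagon signalling. The share of all genes called under the 2-fold rule is not given here, so these drops cannot be set against that of all genes. Adjusted over all genes and doses together, 8 gluconeogenic enzymes and carriers and 2 other glucose transporters (of 6) were called. When single mice were left out, between 0 and 1 member was called at 3 µg/kg, between 2 and 3 at 10 µg/kg, between 3 and 5 at the highest dose and 3 over 9 groups, and the list counts at 30 µg/kg were 9 to 15, 9 to 10, 6 to 9, 7 to 9 for the list opposing gluconeogenesis (10 with all mice) and 2 to 7 for other transporters. Pairs that varied together within groups numbered 9 to 13 over 13 alternatives, 11 as reported. Without mouse 5 of every group, an alternative chosen after seeing the data, 4 members were called at 10 µg/kg (*Pcx* and *Ppargc1a* joining) and 1 other glucose transporter at 30 µg/kg. The cause was not tested. For the joint adjustment and the runs with mice left out, the share of all genes called is likewise not given here. The counts of members and list genes in those runs cannot be set against that share. No direction of a called member turned in any alternative run. No paired analysis was possible because the labels number the mice in 1 series, with no number shared between groups. With 5 mice per group, the 95% interval of *G6pc* at 30 µg/kg ran from -0.96 to 1.71 on the log2 scale, which holds a change of the size seen in *Fbp1* (0.76).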
